A study of Mus musculus with 12 samples.

Results

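The genes described here encode 9 core factors of nonsense-mediated mRNA decay (NMD), namely Upf1, Upf2, Upf3a, Upf3b, Smg1, Smg5, Smg6, Smg8 and Smg9. They were chosen by name, with earlier results of these data known, and all 9 were found among the 49315 genes of the count tables. The RNA came from mouse embryonic fibroblasts (MEFs), connective tissue cells grown in culture, which had been exposed for 24 h to compounds that inhibit the growth kinase mTOR. There were 4 groups of 3 libraries, treated with 20 ng/ml rapamycin, with 250 nM Torin1, with 10 nM RapaLink-1 or with the solvent DMSO. Rapamycin, a macrolide, acts on mTOR complex 1 together with the protein FKBP12. Torin1 competes with ATP at the mTOR kinase, and RapaLink-1 joins rapamycin through a linker to a kinase inhibitor. The labels give no strain, clone or immortalisation for the cells, so what limits them as a model is known only as far as the words embryonic fibroblasts go. The doses differ between the compounds, so a contrast of 2 compounds is one between these doses.

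NMD destroys messages on which translation stops too early. The RNA helicase UPF1 meets the stalled ribosome through the release factors eRF1 and eRF3, and UPF2 with UPF3A or UPF3B ties it to an exon junction complex left downstream of the stop codon. The kinase SMG1, a relative of mTOR in the PIKK family that SMG8 and SMG9 hold in check, then phosphorylates UPF1, and the phosphorylated helicase is bound by SMG6, which cuts the message, and by SMG5, which helps to bring in deadenylation and decapping. NMD needs ongoing translation, which mTOR promotes, and in human cells several NMD factor messages, UPF1 and SMG5 among them, are themselves lowered by NMD.

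Total counts per library lay between 30495065 and 38809352 for rapamycin, 31328365 and 37762480 for Torin1, 30075870 and 36206209 for RapaLink-1, and 34696405 and 39423703 for DMSO. The 10 fibroblast markers listed were all detected, and in CPM (counts scaled by library size to a common total) their sums lay between 20836 and 21223 for rapamycin, 21641 and 22334 for Torin1, and 19446 and 19779 for RapaLink-1, against 22193 and 22601 for DMSO. Rapamycin and RapaLink-1 libraries thus lay below DMSO libraries in this sum, which nets opposed changes of its most abundant genes. With RapaLink-1, Col1a1 and Col1a2 averaged 3395 and 4021 CPM against 5549 and 7024 CPM with DMSO. Vim and Fn1 averaged 4703 and 5930 CPM there, against 3435 and 4201 CPM with DMSO. With rapamycin Col1a1, Col1a2 and Vim were lower and Fn1 was higher. Epithelial, endothelial and haematopoietic markers summed to at most 1.55, 2.93 and 1.38 CPM. The epithelial sum was higher with Torin1 (0.88 to 1.55 CPM) than with DMSO (0.63 to 0.81 CPM). Only the means of Krt8 (0.49 against 0.029 CPM) and Krt18 (0.24 against 0.094 CPM) were higher. Those of Epcam, Cdh1 and Krt14 were lower with Torin1, so the list did not rise as a whole. The endothelial sum was higher with Torin1 (2.32 to 2.48 CPM) and RapaLink-1 (2.65 to 2.93 CPM) than with DMSO (0.76 to 1.56 CPM), as was the haematopoietic sum, at 1.11 to 1.28 CPM and 0.98 to 1.38 CPM against 0.21 to 0.55 CPM with DMSO. Single genes made up most of these sums. Kdr averaged 2.05 and 2.46 CPM against 0.86 CPM with DMSO, and Csf1r 1.16 and 1.16 CPM against 0.36 CPM. Csf1r shares 17.8% of its exonic bases with Hmgxb3 on the other strand. Muscle and neural markers summed to 10.9 to 11.8 CPM with rapamycin, 3.28 to 4.35 CPM with Torin1, 3.15 to 4.51 CPM with RapaLink-1 and 13.6 to 18.1 CPM with DMSO. Nearly all of this was Tubb3, with means of 11.1, 3.59, 3.36 and 15.7 CPM in the same order. Means of Des lay above DMSO instead, at 0.17, 0.21, 0.36 and 0.16 CPM, and Myod1 and Myog had no counts. Mitochondrial genes held up to 1.32% of the counts of a rapamycin library, 1.39% of a Torin1 library and 1.21% of a RapaLink-1 library. A DMSO library had at most 1.11%, and each compound's libraries lay above all those with DMSO. The part of these markers and shares in the results was not tested. Whether the 3 libraries of a treatment stem from independent cultures is not in the labels, and the p-values therefore cover only the spread between these libraries, which may be technical. In bulk RNA, a change per cell cannot be told from a change in the mix of cells.

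All 9 factors passed the filter on low counts, with 381 (Smg9) to 8699 (Smg5) reads per library. With Torin1 and with RapaLink-1, 8 of the 9 messages fell and the endonuclease gene Smg6 rose, and with rapamycin 4 fell (Upf1, Upf2, Smg1 and Smg5) and none rose. The largest fall was that of Upf1, to 0.57 of the DMSO level with Torin1. Calls rest on an adjusted p under 0.05, from the quasi-likelihood test of edgeR with Benjamini-Hochberg adjustment over all 15917 genes tested. Of all these genes 59.7% were called with rapamycin, 78% with Torin1 and 76.7% with RapaLink-1, so that 4, 9 and 9 called members of 9 do not by themselves set the factors apart. The same numbers of members, 4, 9 and 9, had no overlap between the libraries of the compound and of DMSO, as had 63%, 78.5% and 77.6% of all genes. Calls downward took in 32.2%, 38.3% and 37.9% of all genes and calls upward 27.5%, 39.8% and 38.7%, in the same order. The medians of the 9 members were -0.086, -0.19 and -0.21 on the log2 scale, against 0.0043, 0.039 and 0.026 for all genes tested. No test over the list was made.

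The direction of small changes depended on how libraries were scaled. With upper-quartile scaling in place of TMM, the median of all genes moved up by 0.063 with rapamycin, 0.13 with Torin1 and 0.14 with RapaLink-1 (log2, each against DMSO). All genes then split into 5481 higher and 4061 lower with rapamycin (4381 and 5127 with TMM), 7640 and 4999 with Torin1 (6332 and 6090), and 7629 and 4823 with RapaLink-1 (6165 and 6036). Among the 9 factors the split became 1 higher and 4 lower with rapamycin, 1 higher and 4 lower with Torin1, and 2 higher and 5 lower with RapaLink-1.

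**Figure D1:**
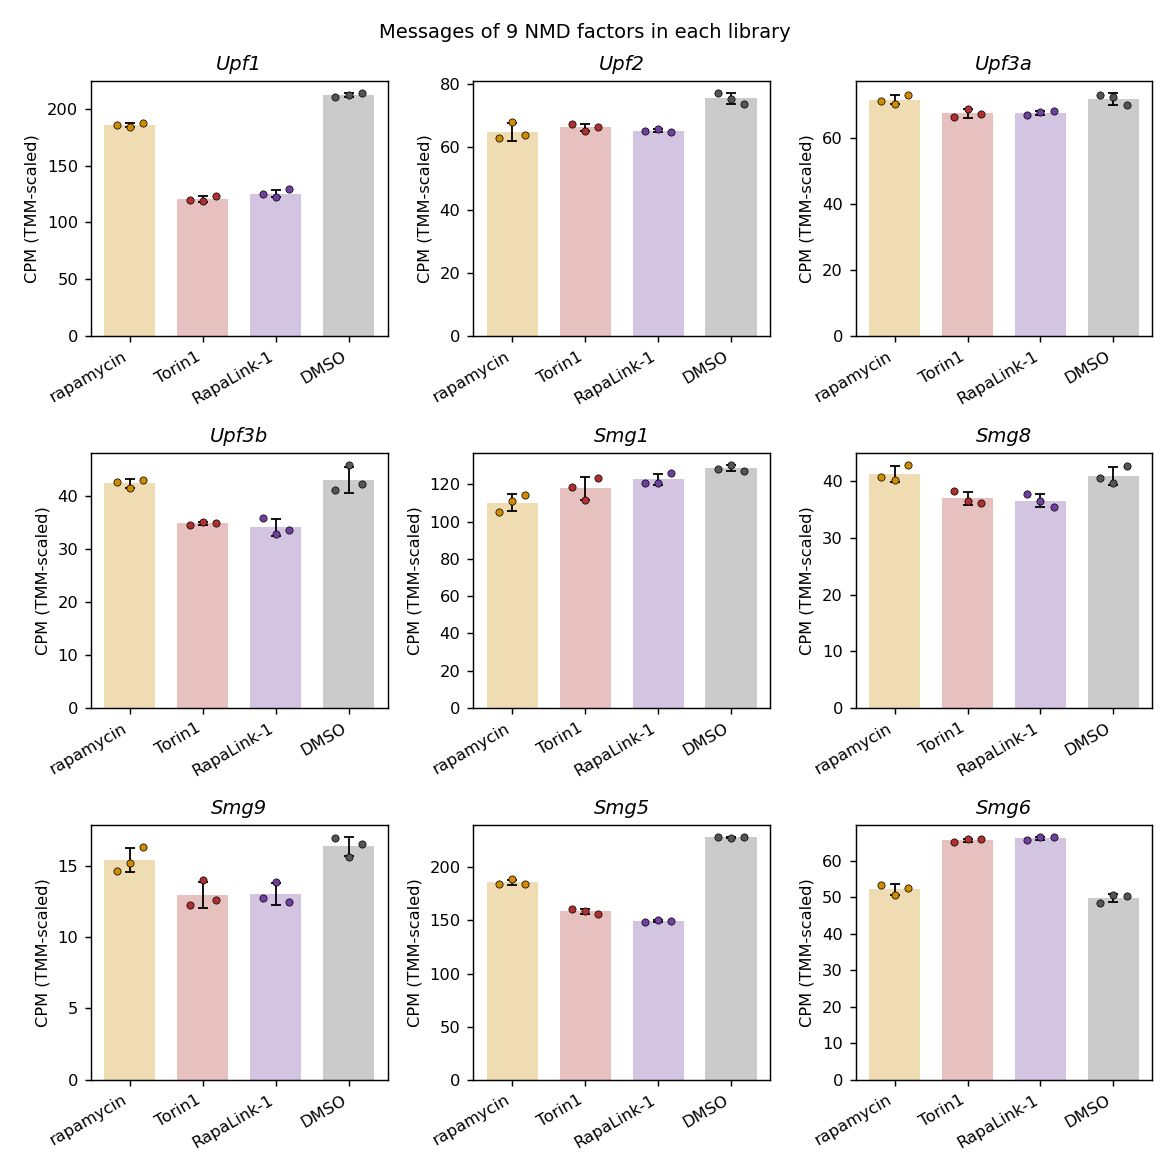
TMM-scaled CPM of the 9 NMD factors (vertical axes, each from 0) by treatment (horizontal axes), with a dot for each library, bars for the mean and error bars for the SD over 3 libraries. Upf1 and Smg5 stand lowest with Torin1 and RapaLink-1, and Smg6 stands at 65.2 to 66.4 CPM with both of these compounds, above 48.5 to 50.5 CPM with DMSO.

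The promoters of 3 members are shown because short letter runs known from housekeeping promoters were found in them. Upf2, Upf3a, Smg1, Smg5 and Smg8, called lower with Torin1 and RapaLink-1 as these 3 were, held none of the runs searched, nor did Smg6. RefSeq promoters (GRCm38.p6) were at hand for all 9 factors, and the window from 250 to 51 bases before the start was searched on both strands for CACGTG (E-box), CCGGAAG (ETS factors), AAGATGG (YY1) and GCATGCG (core of the NRF1 site, whose reverse complement CGCATGC overlaps it when the site is complete). The NRF1 core stood in Upf1 and Smg9, 2 of 9, against 2.04% of 32851 promoter windows. The YY1 letters stood in Upf3b, 1 of 9, against 3.8%. The E-box and ETS letters, held by 4.34% and 3.98% of all windows, were in none of the 9. A match is a description of the letters and not a bound site. Matched letters are in capitals.
Upf1 (chr8:70353330-70353529, minus strand): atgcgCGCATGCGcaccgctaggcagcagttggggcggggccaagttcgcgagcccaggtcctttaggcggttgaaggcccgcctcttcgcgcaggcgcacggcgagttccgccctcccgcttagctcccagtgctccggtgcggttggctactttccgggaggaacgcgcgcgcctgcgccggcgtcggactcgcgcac
Smg9 (chr7:24399378-24399577, plus strand): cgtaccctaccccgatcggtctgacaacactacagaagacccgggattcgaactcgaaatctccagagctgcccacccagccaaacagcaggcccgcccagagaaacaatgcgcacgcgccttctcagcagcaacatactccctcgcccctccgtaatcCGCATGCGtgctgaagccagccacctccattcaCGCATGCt
Upf3b (chrX:37110373-37110572, minus strand): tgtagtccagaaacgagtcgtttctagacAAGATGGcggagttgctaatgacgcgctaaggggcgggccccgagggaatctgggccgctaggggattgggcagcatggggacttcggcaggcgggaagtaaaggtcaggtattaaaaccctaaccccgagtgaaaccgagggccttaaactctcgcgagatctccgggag

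Upf1 (ENSMUSG00000058301, chr8:70331525-70353278, minus strand), the helicase on which the pathway turns, had the widest range of the 9. It stood at 186, 184 and 188 CPM in the rapamycin libraries, at 120, 119 and 123 CPM in the Torin1 libraries, at 125, 122 and 129 CPM in the RapaLink-1 libraries, and at 210, 212 and 214 CPM in the DMSO libraries. Every treated library lay below every DMSO library, the rapamycin libraries between the DMSO libraries and those of the other compounds. Upf1 fell by 0.19 ± 0.02 with rapamycin, by 0.81 ± 0.02 with Torin1 and by 0.76 ± 0.02 with RapaLink-1 (log2 fold change against DMSO ± standard error, adjusted p = 1.51e-16, 1.88e-81 and 2.48e-77 by edgeR). The size of the Torin1 change was larger than that of 73.6% of all genes tested, so the largest change among the NMD factors was not an extreme one in these cells. Of its exonic bases 1.47% overlap Cers1 on the other strand, a gene that rose by 1.08 ± 0.08 with Torin1 from a mean of 9.34 CPM, in the direction opposite to that of Upf1. The strand setting of the counting was not found, and reads in such stretches cannot be told apart.

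Upf2 (ENSMUSG00000043241, chr2:5951469-6056703, plus strand), the adaptor between UPF1 and UPF3 proteins, was lowered to a like level by each compound. It stood at 62.8, 68.1 and 63.8 CPM with rapamycin, 67.5, 65.1 and 66.6 CPM with Torin1 and 65.3, 65.7 and 64.9 CPM with RapaLink-1, against 77.2, 75.5 and 73.9 CPM with DMSO. The 9 treated libraries overlapped each other and all lay below the DMSO libraries. The log2 fold changes against DMSO were -0.22 ± 0.03, -0.19 ± 0.03 and -0.21 ± 0.03 (adjusted p = 1.4e-11, 3.76e-09 and 6.27e-11 by edgeR). With upper-quartile scaling they were -0.16, -0.061 and -0.074, and the Torin1 call was lost (adjusted p = 0.0503). With the filter at 5 CPM the Torin1 and RapaLink-1 values were -0.096 and -0.13. Upf2 did not pass between any 2 compounds, with 95% intervals of the log2 difference of -0.025 to 0.094 for Torin1 against rapamycin, -0.049 to 0.071 for RapaLink-1 against rapamycin and -0.083 to 0.036 for RapaLink-1 against Torin1. The first 2 of these passed with upper-quartile scaling, at 0.098 and 0.086.

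The paralogs Upf3a and Upf3b, whose proteins bind exon junction complexes, moved unequally. Upf3b (ENSMUSG00000036572, chrX:37091678-37110322, minus strand), the stronger NMD activator of the pair, stood at 42.7, 41.5 and 43.0 CPM with rapamycin, 34.5, 35.1 and 34.9 CPM with Torin1 and 35.9, 32.8 and 33.5 CPM with RapaLink-1, against 41.1, 45.9 and 42.2 CPM with DMSO. The Torin1 and RapaLink-1 libraries lay below all DMSO libraries, and the rapamycin libraries lay among them. Upf3b fell by 0.30 ± 0.04 with Torin1 and by 0.34 ± 0.04 with RapaLink-1 (adjusted p = 1.21e-12 and 7.67e-15 by edgeR), or by 0.18 and 0.20 with upper-quartile scaling. With rapamycin its log2 fold change was -0.019, with a 95% interval of -0.092 to 0.054. Upf3a (ENSMUSG00000038398, chr8:13785615-13799193, plus strand), the weaker activator, varied least of the 9. Its libraries ranged from 70.3 to 73.0 CPM with rapamycin, 66.3 to 68.9 CPM with Torin1 and 67.0 to 68.1 CPM with RapaLink-1, against 69.9 to 73.2 CPM with DMSO. The log2 fold changes against DMSO were -0.0048 ± 0.03, -0.091 ± 0.03 and -0.087 ± 0.03, and the last 2 passed (adjusted p = 0.00306 and 0.00491 by edgeR). Both calls ended and both signs turned with upper-quartile scaling (0.035 and 0.051), and keeping only genes averaging 5 CPM or more ended the calls too (0.00021 and -0.0013), so that no direction holds for Upf3a. Stretches of 142 to 151 bases of Upf3a transcripts were at least 95% identical to transcripts of Dnajc14 or Ldah, where reads may be shared.

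Within the SMG1 kinase complex all 3 genes were called lower with Torin1 and RapaLink-1, as were 38.3% and 37.9% of all genes tested. The calls of Smg1 and Smg8 with these compounds depended on the scaling. Smg1 was called lower with rapamycin too, as were 32.2% of all genes. Smg1 (ENSMUSG00000030655, chr7:118131308-118243670, minus strand) was lowest with rapamycin, at 105, 111 and 114 CPM, then at 119, 111 and 123 CPM with Torin1 and 121, 121 and 126 CPM with RapaLink-1, against 128, 130 and 127 CPM with DMSO. The treated libraries all lay below those with DMSO, by little with RapaLink-1, and 1 Torin1 library fell among the rapamycin libraries. The log2 fold changes against DMSO were -0.22 ± 0.03 with rapamycin, -0.12 ± 0.03 with Torin1 and -0.067 ± 0.03 with RapaLink-1 (adjusted p = 2e-11, 2.11e-05 and 0.0175 by edgeR). The rapamycin call held in each of 14 alternative analyses (-0.25 to -0.16). The Torin1 value was 0.0025 with upper-quartile scaling and -0.033 with the filter at 5 CPM, without a call in either. The RapaLink-1 value became a rise of 0.071 with upper-quartile scaling (adjusted p = 0.0143), was 0.019 with the filter at 5 CPM, and lost its call without DMSO replicate 2 (-0.059) and without RapaLink-1 replicate 1 (-0.058) or 2 (-0.058), with adjusted p of 0.00151 to 0.536 over the alternatives. Smg1 was higher than with rapamycin under RapaLink-1, by 0.16 ± 0.03 (adjusted p = 4.91e-07), and under Torin1, by 0.098 ± 0.03 (adjusted p = 0.000956), although the Torin1 call was lost without Torin1 replicate 3 (0.041, adjusted p = 0.186). That Torin1 value was 0.065 without rapamycin replicate 1 and 0.16 with upper-quartile scaling, with adjusted p of 4.52e-07 to 0.186 over the alternatives.

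Smg8 (ENSMUSG00000020495, chr11:87077732-87086774, minus strand) and Smg9 (ENSMUSG00000002210, chr7:24399619-24422778, plus strand), whose proteins restrain SMG1, did not pass with rapamycin and were lower with the other compounds. Smg8 ranged from 40.2 to 42.9 CPM with rapamycin, 36.1 to 38.3 CPM with Torin1 and 35.4 to 37.8 CPM with RapaLink-1, against 39.6 to 42.7 CPM with DMSO. Its log2 fold changes were 0.015 ± 0.04, -0.15 ± 0.04 and -0.17 ± 0.04 (adjusted p = 0.758, 0.000206 and 4.46e-05 by edgeR). Upper-quartile scaling ended the last 2 calls (-0.023 and -0.028). With the filter at 5 CPM the Torin1 call ended (-0.058) and the RapaLink-1 value was -0.080. Smg9, the least abundant of the 9, ranged from 14.7 to 16.3 CPM with rapamycin, 12.3 to 14.0 CPM with Torin1 and 12.5 to 13.9 CPM with RapaLink-1, against 15.6 to 17.0 CPM with DMSO. It fell by 0.34 ± 0.06 with Torin1 and by 0.33 ± 0.06 with RapaLink-1 (adjusted p = 1.74e-07 and 3.07e-07 by edgeR), or by 0.21 and 0.19 with upper-quartile scaling. With rapamycin its value was -0.086 ± 0.06, with a 95% interval of -0.20 to 0.028.

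The effectors that act on phosphorylated UPF1 moved in opposite directions. Smg5 (ENSMUSG00000001415, chr3:88336260-88362338, plus strand), which brings in deadenylation and decapping, stood at 185, 189 and 184 CPM with rapamycin, 161, 159 and 156 CPM with Torin1 and 148, 150 and 149 CPM with RapaLink-1, against 228, 227 and 229 CPM with DMSO. No library of any group overlapped another group. Smg5 fell by 0.30 ± 0.02, 0.52 ± 0.02 and 0.61 ± 0.02 against DMSO (log2, in the same order of compounds, adjusted p = 9.86e-32, 3.8e-59 and 1.29e-67 by edgeR). It was the member with the largest change under rapamycin. Smg6 (ENSMUSG00000038290, chr11:74925823-75164448, plus strand), the endonuclease, stood at 53.5, 50.5 and 52.4 CPM with rapamycin, 65.2, 65.9 and 66.0 CPM with Torin1 and 65.7, 66.4 and 66.4 CPM with RapaLink-1, against 48.5, 50.5 and 50.3 CPM with DMSO. The Torin1 and RapaLink-1 libraries lay well above the others, while 1 rapamycin library lay within the DMSO range. Smg6 rose by 0.40 ± 0.03 with Torin1 and by 0.41 ± 0.03 with RapaLink-1 (adjusted p = 1.59e-25 and 1.55e-26 by edgeR), a rise to 1.32 and 1.33 times the DMSO level, and the calls held in each of 14 alternative analyses (0.38 to 0.53 and 0.39 to 0.55).

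With rapamycin the value of Smg6 was 0.069 ± 0.03, which missed the threshold (adjusted p = 0.0602). It passed with upper-quartile scaling (0.13), with the filter at 5 CPM (0.13), with only the rapamycin and DMSO libraries in the fit (0.092) and without rapamycin replicate 2 (0.088), with adjusted p of 0.000212 to 0.269 over the alternatives. Srr, a serine racemase gene on the other strand, overlaps 1.49% of the exonic bases of Smg6. It rose as well, by 0.54 ± 0.06 with Torin1 and 0.39 ± 0.06 with RapaLink-1, at a mean of 17.2 CPM against 58.4 CPM for Smg6, and its part in the Smg6 result was not tested. In the GENCODE M21 annotation Smg1, Smg5 and Smg6 each have 1 transcript classed as an NMD substrate and the other 6 factors have none. Counts per gene do not tell such transcripts from the coding ones.

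**Figure D2:**
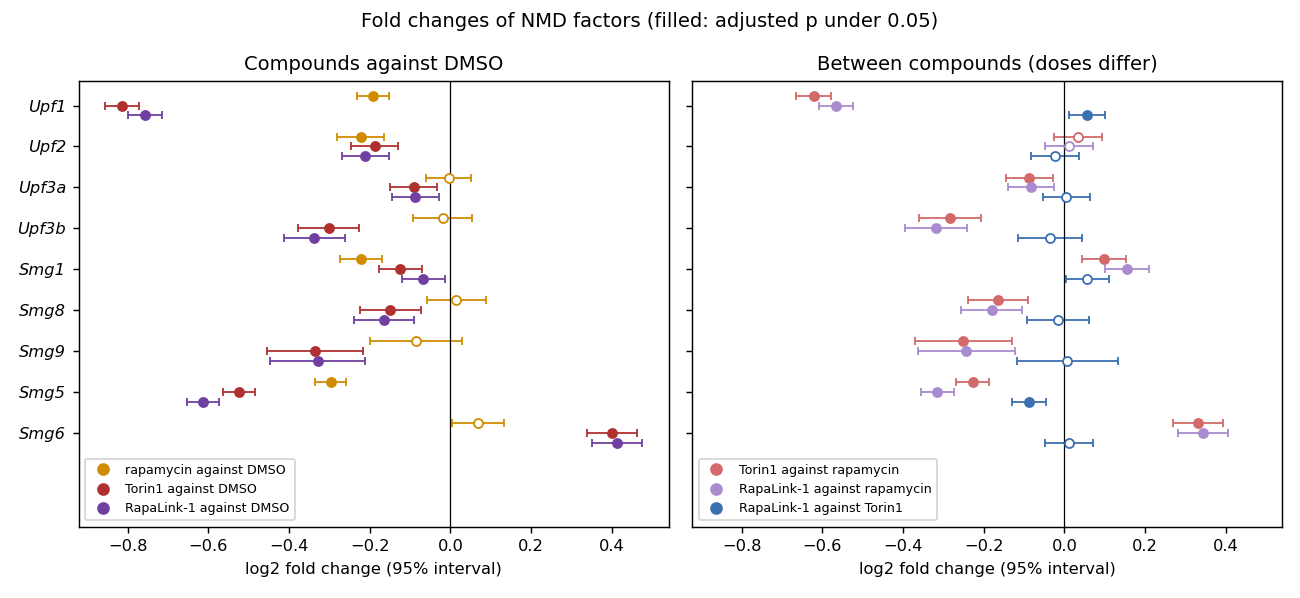
Log2 fold changes of the 9 NMD factors (horizontal axes) with 95% intervals, against DMSO on the left and between compounds on the right, filled where the adjusted p was under 0.05. Upf1 and Smg5 reach -0.81 and -0.61 on the left, Smg6 stands at 0.40 and 0.41 with Torin1 and RapaLink-1, and RapaLink-1 against Torin1 lies between -0.088 and 0.057 throughout.

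Between compounds the contrasts are of the doses used. Torin1 against rapamycin gave 6 lower and 2 higher of the 9 (67.5% of all genes were called, 33.2% lower and 34.2% higher), led by Upf1 at -0.62 ± 0.02 and Smg6 at 0.33 ± 0.03 (adjusted p = 6.31e-64 and 1.43e-19 by edgeR). RapaLink-1 against rapamycin gave 6 lower and 2 higher as well (65% of all genes called, 33% lower and 32% higher), with Upf1 at -0.57 ± 0.02, Upf3b at -0.32 ± 0.04, Smg5 at -0.32 ± 0.02 and Smg6 at 0.34 ± 0.03. The libraries of the 2 compounds did not overlap for 7 of the 9 in the first contrast and 8 of the 9 in the second (69.2% and 67.4% of all genes). In both contrasts upper-quartile scaling gave 3 higher and 5 lower (6296 higher and 4311 lower over all genes in the second, against 5088 and 5260 with TMM), Smg8 moved to -0.10 and -0.11 (-0.16 and -0.18 with TMM), and the Upf3a calls (-0.087 and -0.082) ended under upper-quartile scaling (-0.023 and -0.0075), under the filter at 5 CPM (-0.053 and -0.055) and without rapamycin replicate 3 (-0.072 and -0.069). RapaLink-1 against Torin1 called 2 of the 9 (33.2% of all genes, 16.4% lower and 16.7% higher). Smg5 was lower by 0.088 ± 0.02 (adjusted p = 0.000288), the only member whose libraries did not overlap (42.2% of all genes), and held in each of 14 alternatives. Upf1 was higher by 0.056 ± 0.02 (adjusted p = 0.0486), with overlapping libraries, and lost its call in 7 of 14 alternatives (adjusted p = 0.00898 to 0.249), among them without Torin1 replicate 1 (0.059) or 2 (0.049) and without RapaLink-1 replicate 3 (0.041). With upper-quartile scaling this contrast gave 2 higher and 1 lower, Smg1 being added at 0.068. Smg1, at 0.057 here (adjusted p = 0.0926), also passed with DESeq2 size factors (0.067) and without Torin1 replicate 3 (0.0995), with adjusted p of 0.0021 to 0.568 over the alternatives. The widest 95% interval among the 7 members that did not pass was that of Smg9, -0.12 to 0.13.

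Because the factors work in shared complexes, their levels were also set against each other within each library, where the scaling of libraries cancels. The levels used here are reads scaled by exon length and library size (RPKM), and the exon length in the tables includes rare transcripts, so ratios between genes depend on it. The ratio of Smg6 to Smg5 lay between 0.22 and 0.24 for rapamycin, 0.33 and 0.35 for Torin1, and 0.36 and 0.37 for RapaLink-1, against 0.17 and 0.18 for DMSO, with no overlap between any 2 groups. The ratio of Smg1, the kinase, to Upf1, its substrate, lay between 0.109 and 0.117 for rapamycin, 0.181 and 0.193 for Torin1, and 0.186 and 0.190 for RapaLink-1, against 0.115 and 0.118 for DMSO. Rapamycin and DMSO thus overlapped in this ratio, and both lay below the other compounds. The ratio of Upf1 to Upf2 lay between 3.20 and 3.50 for rapamycin, 2.11 and 2.20 for Torin1, and 2.21 and 2.36 for RapaLink-1, against 3.23 and 3.43 for DMSO. The ratio of Upf3a to Upf3b lay between 1.14 and 1.16 for rapamycin, 1.31 and 1.34 for Torin1, and 1.27 and 1.41 for RapaLink-1, against 1.08 and 1.21 for DMSO. With 3 libraries against 3, an exact two-sided permutation test of a single ratio cannot go below p = 0.1, so these are given as ranges.

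**Figure D3:**
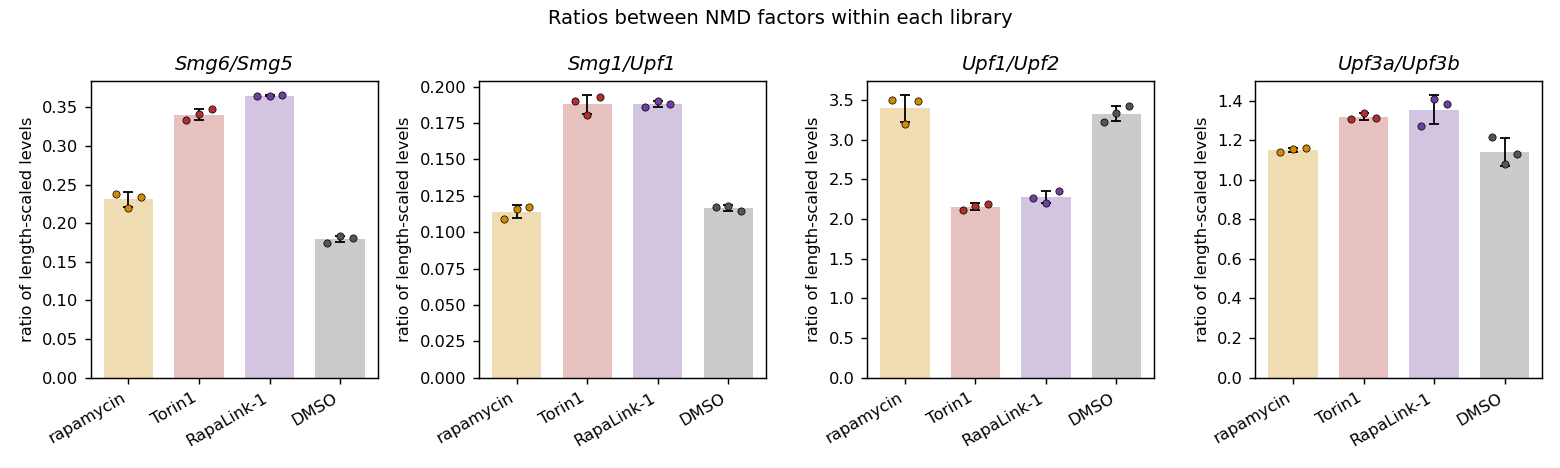
Ratios of RPKM between pairs of NMD factors (vertical axes, from 0) in each library by treatment, with bars for the mean and error bars for the SD over 3 libraries. Smg6 over Smg5 goes up to 0.37 with RapaLink-1 against 0.17 to 0.18 with DMSO, and Upf1 over Upf2 is lower with Torin1 and RapaLink-1 than with rapamycin or DMSO.

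On the same length-scaled level the order of the 9 changed little. Upf1 was highest in each group, at 40.2 ± 0.39 RPKM with rapamycin, 26.1 ± 0.51 with Torin1 and 27.2 ± 0.74 with RapaLink-1, against 45.9 ± 0.35 with DMSO (SD, n = 3 each). Smg5 came next in each, at 26.7 ± 0.36, 22.8 ± 0.35 and 21.4 ± 0.14 RPKM with the compounds in the same order, against 32.8 ± 0.09 with DMSO. Upf2, Upf3a and Smg8 followed at 11.4 to 13.8 RPKM. Neighbours in the order overlapped for Upf3a and Upf2 with rapamycin, and for Upf3a and Smg8 with Torin1, RapaLink-1 and DMSO. Upf3b (8.53 to 10.8 RPKM), Smg6 (5.89 to 7.83 RPKM), Smg1 (4.59 to 5.36 RPKM) and Smg9 (3.50 to 4.42 RPKM) came last in that order in each group, Smg1 and Smg9 overlapping with rapamycin. Summed over the 9 genes the level was 129 ± 1.15 RPKM with rapamycin, 109 ± 0.37 with Torin1 and 108 ± 0.50 with RapaLink-1, against 144 ± 0.40 with DMSO (SD, n = 3 each).

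Among 9179 other genes averaging 10 CPM or more over the 12 libraries, 1891 had a Pearson correlation of log2 CPM over 0.95 with Upf1, 1433 with Smg5 and 746 with Smg6. The genes nearest to Upf1 were Ppil1 (r = 0.999), Hspa14 (0.999) and Srsf7 (0.998), those nearest to Smg5 were Hnrnph3, Ccar1 and Tfrc (0.996 each), and those nearest to Smg6 were Mtmr3 (0.998), Plin4 (0.995) and Qars (0.995). The 12 points fall into the 4 treatment groups, which these correlations reflect, so they describe likeness of the group levels only.

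Other genes of the pathway and of its surroundings were read from lists of related function. Of 11 other NMD and termination factors, 1 rose and 5 fell with rapamycin, 3 rose and 7 fell with Torin1, and 3 rose and 7 fell with RapaLink-1 (medians -0.099, -0.42 and -0.31 on the log2 scale). Among all genes 27.5%, 39.8% and 38.7% were called higher and 32.2%, 38.3% and 37.9% lower, in the same order of compounds. No test was made over this or the following lists. Gspt1, which encodes eRF3a, stood at 292 CPM with rapamycin, 192 CPM with Torin1 and 202 CPM with RapaLink-1, against 405 CPM with DMSO (means, n = 3 each), and Etf1, which encodes the release factor eRF1, was at -0.44 ± 0.02, -0.60 ± 0.02 and -0.57 ± 0.02. The cap-binding subunit gene Ncbp1 was at -0.43 ± 0.02 with rapamycin and -1.02 ± 0.02 with RapaLink-1, and at 0.50 of the DMSO level with Torin1. The poly(A)-binding protein gene Pabpc1, which may share reads with related genes, rose by 0.10 ± 0.01, 0.61 ± 0.01 and 0.65 ± 0.01. For rapamycin, upper-quartile scaling gave 2 higher and 4 lower in this list.

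Genes of the exon junction complex, which marks the sites that NMD reads, fell in 8 of 10 cases with rapamycin (1 rose), in 9 of 10 with Torin1 and in 9 of 10 with RapaLink-1 (medians -0.28, -0.59 and -0.62). The shares of all genes called lower were 32.2%, 38.3% and 37.9%. With upper-quartile scaling 1 of the 10 rose and 8 fell with Torin1, and 1 rose and 9 fell with RapaLink-1. The RNA helicase gene Eif4a3, the anchor of the complex, was at -0.35 ± 0.02, -0.91 ± 0.02 and -0.89 ± 0.02. Its partners Rbm8a (Y14) and Magoh were at -0.46 ± 0.02, -0.83 ± 0.02 and -0.87 ± 0.02 and at -0.39 ± 0.03, -0.88 ± 0.03 and -0.85 ± 0.03. Both values are uncertain, as reads may be shared with related genes (Rbm8a2 and Magohb), which was not tested. The peripheral factor gene Rnps1 was at -0.22 ± 0.03, -0.52 ± 0.03 and -0.53 ± 0.03.

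Of 27 genes of decapping, deadenylation and exonucleases, 3 rose and 20 fell with rapamycin, 4 rose and 20 fell with Torin1, and 3 rose and 20 fell with RapaLink-1 (medians -0.15, -0.25 and -0.31). For comparison, 27.5%, 39.8% and 38.7% of all genes were called higher and 32.2%, 38.3% and 37.9% lower. With upper-quartile scaling the splits were 5 and 14, 7 and 17, and 7 and 17. The exosome genes Exosc2 (-0.59 ± 0.03, -1.07 ± 0.03 and -1.08 ± 0.03, with 12.4% of its exonic bases shared with an antisense gene) and Dis3 (-0.61 ± 0.02, -0.82 ± 0.03 and -0.89 ± 0.03) were among them, as were the deadenylase gene Cnot6 (-0.21 ± 0.02, -0.87 ± 0.02 and -0.84 ± 0.02) and the scaffold gene Cnot1 (-0.34 ± 0.02, -0.56 ± 0.02 and -0.52 ± 0.02). The 3 that rose with RapaLink-1, named after their values were seen, were the decapping cofactor gene Dcp1b (1.08 ± 0.08), the deadenylase subunit gene Pan3 (0.31 ± 0.03) and the exonuclease gene Xrn1 (0.30 ± 0.03).

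Among 12 other PIKK genes and factors that assemble PIKK proteins, 2 rose and 7 fell with rapamycin, 3 rose and 8 fell with Torin1, and 2 rose and 7 fell with RapaLink-1 (medians -0.098, -0.11 and -0.10), which became 5 and 5, 4 and 5, and 5 and 4 with upper-quartile scaling. With TMM, calls upward took in 27.5%, 39.8% and 38.7% of all genes and calls downward 32.2%, 38.3% and 37.9%. Mtor itself, whose protein the compounds inhibit, was at 81.4 ± 1.83 CPM with rapamycin, 85.8 ± 3.40 with Torin1 and 82.9 ± 1.83 with RapaLink-1, against 73.2 ± 0.87 with DMSO (SD, n = 3 each), and rose by 0.15 ± 0.03, 0.23 ± 0.03 and 0.18 ± 0.03. The helicase genes Ruvbl1 and Ruvbl2, whose proteins help to assemble SMG1 and mTOR, were at -0.51 ± 0.02, -0.74 ± 0.03 and -0.77 ± 0.03 and at -0.51 ± 0.03, -0.88 ± 0.03 and -0.93 ± 0.03, Ruvbl2 with 10.7% of its exonic bases shared with Gys1. Rpap3 was at -0.39 ± 0.04, -0.41 ± 0.04 and -0.53 ± 0.04 and the DNA damage kinase gene Atm at -0.23 ± 0.03, -0.33 ± 0.03 and -0.20 ± 0.03.

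Messages known as NMD substrates did not move as a block. Of 14 listed, 3 rose and 10 fell with rapamycin, 8 rose and 6 fell with Torin1, and 7 rose and 5 fell with RapaLink-1 (medians -0.27, 0.17 and 0.12). In either direction, 59.7%, 78% and 76.7% of all genes were called with these compounds. The shares called higher were 27.5%, 39.8% and 38.7%, and those called lower 32.2%, 38.3% and 37.9%. The snoRNA host Zfas1 stood at 48.4 ± 1.08 CPM with rapamycin, 265 ± 6.58 with Torin1 and 236 ± 7.44 with RapaLink-1, against 62.1 ± 2.83 with DMSO (SD, n = 3 each), or -0.36 ± 0.03, 2.09 ± 0.02 and 1.92 ± 0.02 on the log2 scale. Gas5, another snoRNA host, went the same ways at -0.23 ± 0.02, 0.43 ± 0.02 and 0.32 ± 0.02. The other snoRNA hosts listed, named after their values were seen, were divided. Means of Snhg12 and Snhg15 lay below DMSO with rapamycin and above it with Torin1 and RapaLink-1. Snhg1 was lower with each compound, at means of 77.9, 96.7 and 85.8 CPM against 103.5 CPM with DMSO. The stress transcription factor gene Atf4 was lower with each compound, at -0.40 ± 0.02, -1.22 ± 0.02 and -1.24 ± 0.02, while the NF-kB-inducing kinase gene Map3k14 was higher with each, at 0.37 ± 0.04, 0.50 ± 0.04 and 0.83 ± 0.04. Many of these messages also answer to other signals, and no value here separates their synthesis from their decay. All values of this and the preceding lists are log2 fold changes against DMSO in the order rapamycin, Torin1 and RapaLink-1. Each of the listed genes named with them passed by edgeR's test at an adjusted p under 0.05. Most were named for the smallest p over the 4 groups in the same fit, so their passing was largely set by that choice.

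**Figure D4:**
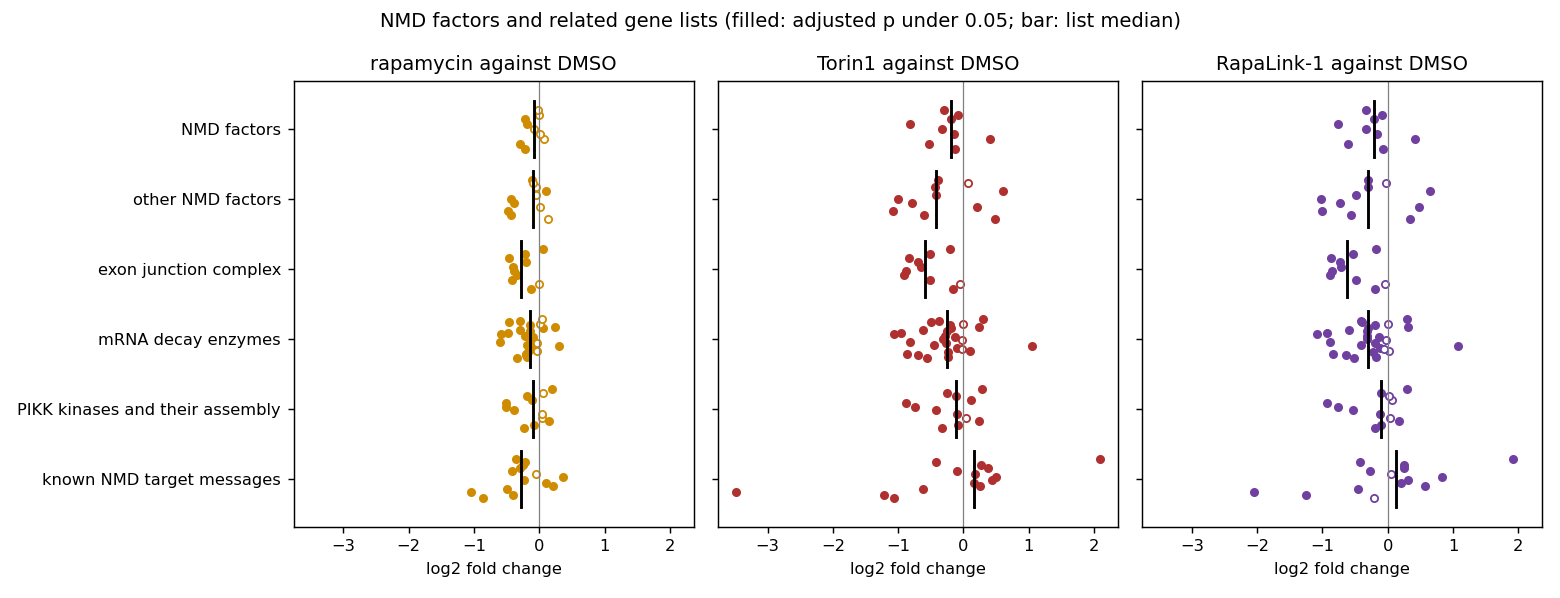
Log2 fold changes against DMSO (horizontal axes) of the genes tested in each list (vertical axis), filled where the adjusted p was under 0.05, with a bar at the list's median. The exon junction complex list has the lowest median in each panel (-0.28, -0.59 and -0.62), and the listed NMD substrates spread on both sides of 0.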

How the data were processed

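The authors deposited 1 table for each of 12 libraries, holding raw read counts of genes in the layout of featureCounts, per the file headers. The submitters' processing notes name Trimmomatic 0.36, STAR 2.5.2b, featureCounts (Subread 1.5.2), DESeq2 and GRCm38. How strand and multi-mapping reads were handled in counting is not given in the sources used here. Counts were used without change. Symbols came from GENCODE M21 (GRCm38), which held 48970 of the 49315 gene IDs, and positions are those of the count tables, which for all 9 members equal those of GENCODE M21.

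Genes were filtered with filterByExpr by group, scaled with TMM factors and tested with edgeR 4.0.16 in R 4.3.3. A robust fit with treatment as the term took all 12 libraries (8 residual degrees of freedom), and 6 two-sided contrasts were adjusted over all 15917 genes tested by the Benjamini-Hochberg method. Standard errors are the absolute log2 fold change over the square root of F. CPM and RPKM use the TMM-scaled library sizes, and log2 CPM a prior count of 2. The test was checked on simulated counts with 1 fixed spread for all genes, for each compound against DMSO. Of 50 genes changed 1.2-fold, 33 were recovered in each comparison. At 2-fold 42 to 44 of 50 were recovered, and at 4-fold 47 to 50 of 50. Between 4 and 15 unchanged genes were called. Few of the genes were changed in the simulation, in either direction at random. It therefore cannot tell how the scaling behaves where most genes are called, as in these data against DMSO. The alternatives were DESeq2 1.42.0 and its size factors, upper-quartile scaling, limma 3.58.1 voom, other filters, fits on 6 libraries, a replicate block and leaving out each library. Transcripts were compared with blastn 2.17.0 (at least 95% identity over at least 100 bases). No 2 replicates agreed within sampling noise (chi-square over its degrees of freedom 1.33 to 1.99 for genes with at least 20 counts).

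The members, lists and tests were chosen with earlier results of these data known. All 9 members are named, with up to 4 genes of each other list by the smallest p over the 4 groups, the gene Mtor, and the 3 genes most like the 3 members of widest range. Exceptions are marked. Some single-gene results are not reported here.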

Additional observations from a re-analysis of the deposited data

How the results depend on the processing

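Of 54 values (9 factors in 6 contrasts), 33 kept both their direction and their side of the threshold in each of 14 alternatives. Over all 756 values under alternatives, 23 lost a call and kept their sign, 10 gained a call, and 28 had the opposite sign. Of these 28, 22 belonged to 7 of the 14 values that had not passed, and 6 to values of Upf3a and Smg1 that had. For Torin1 against DMSO, Upf3a was at 0.035 and Smg1 at 0.0025 with upper-quartile scaling, and Upf3a at 0.00021 when genes averaging under 5 CPM were left out. For RapaLink-1 against DMSO, Upf3a was at 0.051 and Smg1 at 0.071 with upper-quartile scaling, and Smg1 at 0.019 with the filter at 5 CPM. Under upper-quartile scaling, 5 of the 9 factors were called for Torin1 against DMSO in place of 9. For RapaLink-1 against Torin1, 1 factor was called in place of 2 with limma voom, with no filter on low counts, with the filter at 5 CPM and with only the libraries of these groups, and 1 to 3 when a library was left out. The cause was not tested. Counts of called factors moved by at most 1.5 times in the other alternatives, with 6 called for Torin1 against DMSO under the filter at 5 CPM and 3 for RapaLink-1 against Torin1 under upper-quartile scaling or DESeq2 size factors. Counts over all genes moved by less than that in each alternative, with 7821 to 9542 called for rapamycin against DMSO. Same-numbered libraries of different groups showed little joint deviation (r of -0.060 to 0.10, 10 of 36 best matches with the same number). Libraries with different numbers gave r of -0.11 to 0.097. Such a check would miss a small shared effect, so it cannot tell whether the libraries were paired. The replicate block gave 4, 9, 9, 8, 8 and 2 called factors in the order of the contrasts in the report, as without it. At 381 or more reads per library, the largest SD of a member over 3 libraries was 7.08% of its mean (Smg9 with Torin1), which limits the changes that can be seen in the scarcest member.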
